A study of Pan troglodytes with 38 samples.

Results

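The hypoxia response genes described here are HIF1A, EPAS1, HIF3A, EGLN1, EGLN3, VEGFA, ADM, NDRG1, ANKRD37 and BNIP3. They were found by symbol among the 31373 annotated chimpanzee genes of a table of read counts, in which each of the 10 has 1 Ensembl identifier. The libraries were made from polyA RNA of frozen post-mortem heart of 38 captive chimpanzees, 1 library per animal, and the labels put all of them in 1 group. The study states that some of the animals came from laboratories and had been challenged with hepatitis B or C virus. Which animals these were was not used here, so the part of that exposure in any value was not tested. RNA was extracted in 2016 for 17 animals, on 4 dates, and in 2018 for 21 animals, on 1 date. The extraction year, which the study's sample table gives, is tied to published against new libraries, and these cannot be told apart. Of the animals, 22 were female and 16 male, and 21 of them came from Yerkes. A known age at death ran from 10 to 57 years in 34 animals. Its median was 36 years in the 17 animals of 2016 and 27 years in the 17 of 2018 with a known age. The median RNA integrity number was 6.2 in 2016 and 5.4 in 2018. The part of age in any difference between the years was not tested. Some of the animals are first-degree relatives, so the animals are not all independent samples. Human hearts were not analysed here.

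Cells sense oxygen through the hypoxia-inducible factors. HIF1A and EPAS1, which encodes HIF-2 alpha, are alpha subunits that pair with a constant partner and switch on genes of glycolysis, blood vessel growth and survival. While oxygen is present, prolyl hydroxylases of the EGLN family mark the alpha subunits for destruction, so their activity is set largely at the protein level and a transcript level does not measure it. EGLN3 and many other genes of the response are themselves switched on by the factors, which makes them common readouts of hypoxia. In heart muscle, with its constant demand for oxygen, the pathway is known for its part in ischemia.

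Levels are given as CPM, counts scaled by the animal's total of reads on exons shared with human. That total had a median of 41226040 and ran from 14408012 to 81603350. They are compared between animals and never between genes, because gene length was not removed. The share of gene counts on mitochondrially encoded genes ran from 17.2% to 60.1%, with a highest value of 35% in 2016. Animals Little_R and 537, both of 2018, stood apart from the rest, with median correlations to the other libraries of 0.749 and 0.819 against 0.943 for the middle animal. Little_R had the lowest sum of 7 cardiomyocyte markers (10731 CPM against a median of 90272) and the highest sum of 5 fibroblast markers (10046 CPM against 1563). Sex labels were checked with 5 Y-linked genes, whose sums were 141 CPM or more in every male and 1.51 CPM or less in every female. In bulk tissue, fewer cells of a type and less RNA per cell cannot be told apart.

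HIF1A, the oxygen-regulated subunit present in most cells (ENSPTRG00000006419), ran from 27.8 CPM in animal 4X0339 through a median of 73.2 to 279 CPM in animal 570. The 2 highest animals, 570 and 4x0025 (166 CPM), were both extracted in 2016. In 2016 the lowest, median and highest levels were 63.1, 86.0 and 279 CPM, and in 2018 they were 27.8, 69.9 and 142 CPM. The ranges overlapped, but 7 of the 21 animals of 2018 were below every animal of 2016.

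EPAS1 (ENSPTRG00000011891), the alpha subunit best known from endothelium, was the steadiest of the 3 alpha subunits. Its level was lowest in 4X0339 at 347 CPM, 508 CPM at the median and highest in 537 at 945 CPM, so that the highest animal was 2.73-fold above the lowest. The medians of 2016 and 2018 were 517 and 505 CPM, and 1 animal of 2018 was above and 2 were below every animal of 2016. The same ratio of highest to lowest animal was 10.1 for HIF1A and 9.84 for HIF3A.

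HIF3A (ENSPTRG00000011180) encodes an alpha subunit whose splice forms include inhibitors of the response. It ran from 35 CPM in animal 529 through 112 to 345 CPM in animal 558. The lowest, median and highest levels were 67.3, 105 and 137 CPM in 2016 and 35, 134 and 345 CPM in 2018. The 2016 animals therefore lay inside the range of 2018: of the 21 animals of 2018, 10 were above every animal of 2016 and 7 were below every one.

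EGLN1 (ENSPTRG00000002110), the main prolyl hydroxylase that marks HIF1A under normal oxygen, had its lowest level in animal 522 at 118 CPM, a median of 196 CPM and its highest level in 570 at 470 CPM. Animal 570 was thus highest for both HIF1A and EGLN1. The medians were 182 CPM in 2016 and 197 CPM in 2018, and no animal of 2018 was outside the range of 2016.

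EGLN3 (ENSPTRG00000006250), a hydroxylase of the same family that hypoxia itself induces, ran from 71.3 CPM in Little_R through 287 to 837 CPM in MD_And. Little_R stood apart at the low end, since the next lowest animal, 676, had 146 CPM. The 2 years had nearly equal medians of 283 CPM in 2016 and 288 CPM in 2018.

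**Figure D1:**
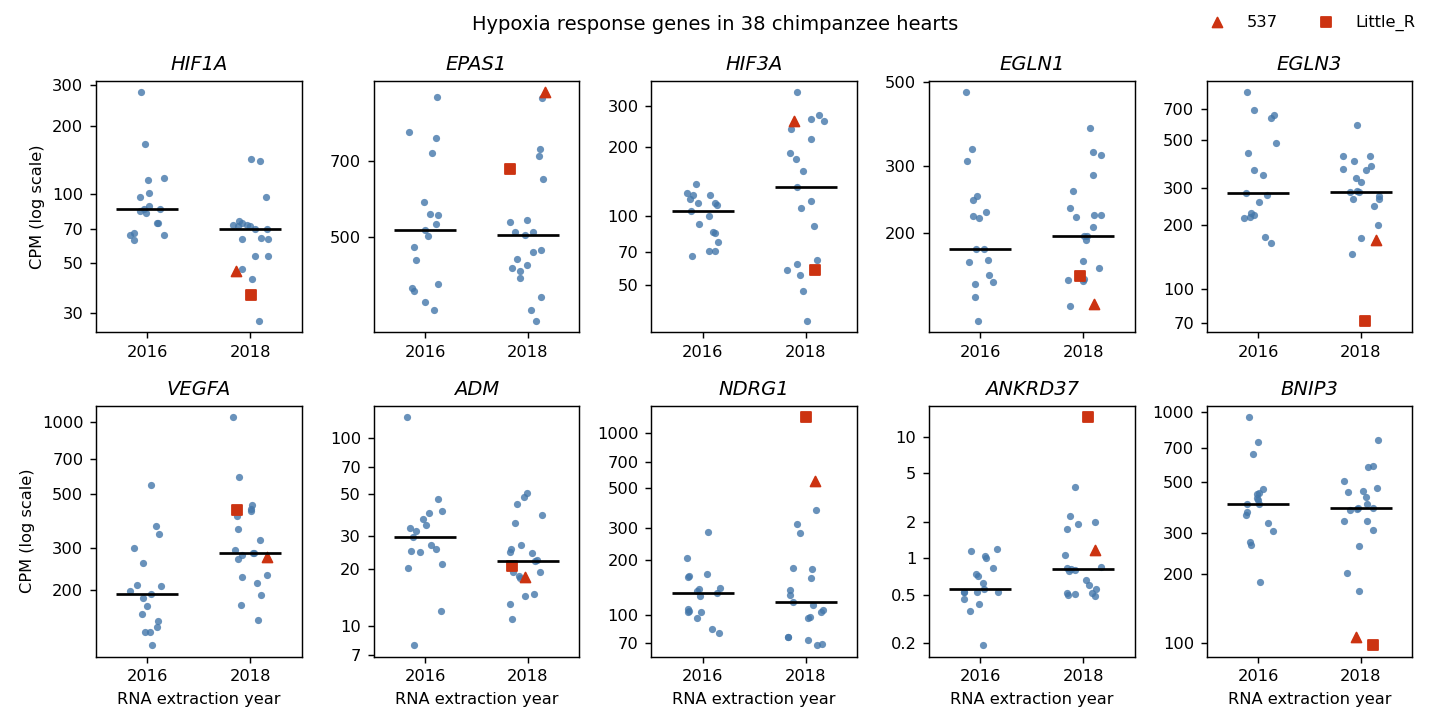
Levels of the 10 genes in each of the 38 hearts, in CPM on a log axis, by RNA extraction year. Each point is 1 animal, lines are medians, and the red triangle and square mark animals 537 and Little_R. HIF3A lies between 67.3 and 137 CPM in 2016 and between 35 and 345 CPM in 2018, and Little_R is highest for NDRG1 and ANKRD37 and lowest for EGLN3 and BNIP3.

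VEGFA (ENSPTRG00000043213), the growth factor that drives new vessels, ran from 118 CPM in animal 338 through 265 to 1044 CPM in animal 4X0354. The next highest animal, 4X0357, had 592 CPM. Animal 4X0354 also had the highest atrial marker sum of 2018, 16404 CPM, and the part of that in its VEGFA level was not tested. The lowest, median and highest levels were 118, 192 and 547 CPM in 2016 and 151, 286 and 1044 CPM in 2018, and 18 of the 21 animals of 2018 were above the median of 2016.

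ADM (ENSPTRG00000003354) encodes adrenomedullin, a peptide that widens vessels. It ran from 7.85 CPM in animal 438 through 24.8 to 129 CPM in animal 549. Only 549 was far above the rest, as the next highest animal, 554, had 50.6 CPM. Animal 549 also had the highest sum of 3 atrial markers, 40645 CPM against a median of 432 CPM, and the part of that in its ADM level was not tested.

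NDRG1 (ENSPTRG00000020603), a stress-response gene raised by hypoxia, ran from 68.2 CPM in animal 476 through 128 to 1229 CPM in Little_R. The next animals were 537 with 544 CPM and 495 with 380 CPM, all 3 of 2018. The medians were 132 CPM in 2016 and 118 CPM in 2018, but 4 animals of 2018 were above and 5 below every animal of 2016.

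ANKRD37 (ENSPTRG00000016651), a small ankyrin repeat gene and a direct HIF1A target, was scarcely expressed. Its counts were between 8 and 208 reads with a median of 26, and its level ran from 0.193 CPM in 4x0430 through 0.725 to 14.4 CPM in Little_R. It passed the minimum of 6 CPM in at least 1 animal only through Little_R, since the next highest animal, 529, had 3.83 CPM. Correlations and dispersion of ANKRD37 are therefore given only with Little_R included, except where its absence is stated.

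BNIP3 (ENSPTRG00000003067), which sends mitochondria to autophagy, ran from 97.8 CPM in Little_R through 392 to 952 CPM in 338. Animal 537 was next to the lowest with 106 CPM. The medians of 401 CPM in 2016 and 383 CPM in 2018 were close. Animal 338 was highest for BNIP3 and lowest for VEGFA.

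Between the extraction years, HIF1A fell while VEGFA and ANKRD37 rose, and the other 7 genes did not pass the test. By edgeR's quasi-likelihood test adjusted for sex over 15790 genes, 3 of the 10 were called at an adjusted p under 0.05, against 16.1% of all genes (11.2% higher and 4.82% lower in 2018). HIF1A was lower in 2018 by a log2 fold change of -0.55 (SE 0.17, adjusted p = 0.0234 by edgeR). VEGFA was higher by 0.62 (SE 0.20, adjusted p = 0.0285 by edgeR). ANKRD37 was higher by 1.24 (SE 0.38, adjusted p = 0.0211 by edgeR).

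Each of these calls was lost without 1 particular library and kept in the other 37 fits that left 1 animal out. Without 570 the change of HIF1A was -0.40 with an adjusted p of 0.0602, and without 4X0354 that of VEGFA was 0.52 with an adjusted p of 0.0535. Without Little_R the change of ANKRD37 was 0.66 with an adjusted p of 0.0640, and with DESeq2 over all animals it was 0.64. Without both Little_R and 537, VEGFA alone was called (0.67, SE 0.20, adjusted p = 0.0204 by edgeR). Among the Yerkes animals alone none of the 10 was called, where 2.08% of all genes were, and none was called when the mitochondrial share was added to the model, where 3.18% of all genes were called in place of 16.1%.

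Of the uncalled genes, HIF3A had a change of 0.46 (SE 0.22) with an adjusted p of 0.153. NDRG1 had a change of 0.51 (SE 0.29) with an adjusted p of 0.229, which was 0.14 without Little_R. ADM at -0.45, EGLN3 at -0.38, BNIP3 at -0.26, EPAS1 at -0.09 and EGLN1 at -0.03 had adjusted p values of 0.196 or more. The median change was -0.06 over the 10 genes and -0.01 over all genes tested.

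**Figure D2:**
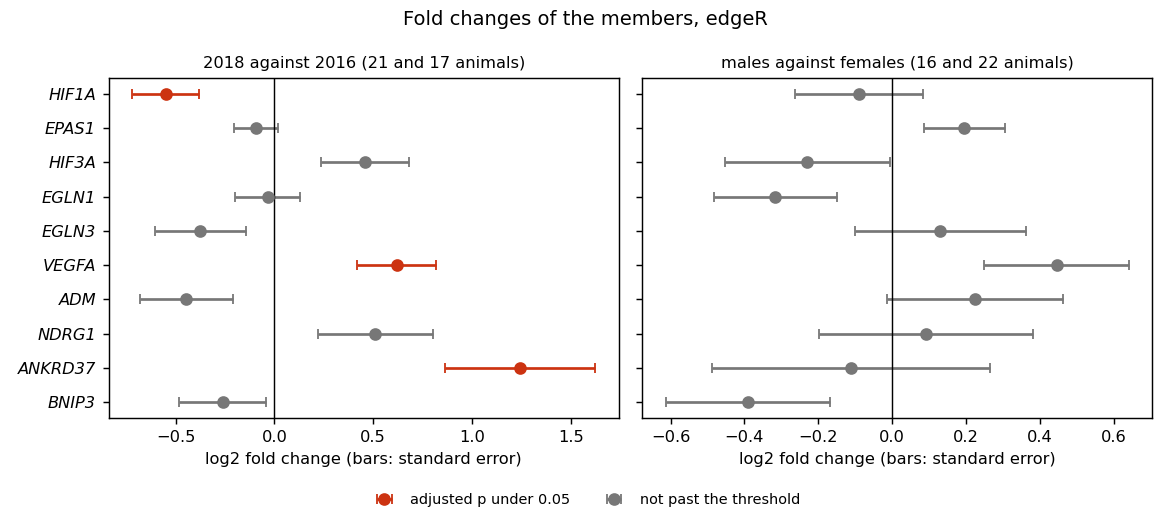
Log2 fold changes of the 10 genes between extraction years (left) and sexes (right), from edgeR, with bars of 1 standard error. Red marks adjusted p under 0.05: HIF1A at -0.55, VEGFA at 0.62 and ANKRD37 at 1.24 between years, and no gene between sexes.

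Although the levels of HIF3A did not pass the test, its spread did. The mean absolute deviation of log2(CPM + 0.5) from the median of the year was 0.28 in 2016 and 0.87 in 2018, a difference of 0.59. A two-sided permutation test of the year labels gave p = 2e-05 and an adjusted p of 0.0292 over 13121 genes. HIF3A was the only 1 of the 10 called, against 0.526% of all genes, and the spread was wider in 2018 for 80.5% of all genes. This test was chosen after the levels were seen. Without 537 and Little_R the difference was 0.57 with an adjusted p of 0.0833.

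Between males and females none of the 10 genes was called by edgeR, against 0.215% of all genes. At an unadjusted p under 0.05 there was 1 gene, and DESeq2 called 0 of the 10 as well. Over all genes, 1330 were at an unadjusted p under 0.05. That gene was VEGFA, with levels between 192 and 1044 CPM and a median of 286 CPM in males, and between 118 and 592 CPM with a median of 204 CPM in females. The log2 fold change was 0.45 (SE 0.20, p = 0.0290, adjusted p = 0.516 by edgeR), and 14 of the 16 males were above the female median. BNIP3 went the other way by -0.39 (SE 0.22, adjusted p = 0.670 by edgeR), and 2 of the 16 males were above the female median. The sex difference of VEGFA was not called to differ between the years (interaction -0.93, SE 0.37, p = 0.0163, adjusted p = 0.9997 by edgeR), nor was that of any of the other 9 genes.

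Other genes of the pathway were taken from 4 lists, of which 66 genes were tested. Between years 3 of the 66 were called, 1 up and 2 down, against 16.1% of all genes, with a median change of -0.16. JMJD6, an oxygen-dependent hydroxylase, rose by 0.70 (SE 0.23, adjusted p = 0.0329 by edgeR), with a highest level of 527 CPM in 2018 and of 94.2 CPM in 2016. HK1, the first enzyme of glycolysis, fell by 0.42 on the log2 scale (SE 0.13, adjusted p = 0.0280 by edgeR). LDHA, which makes lactate, fell by 0.48 on the log2 scale (SE 0.17, adjusted p = 0.0465 by edgeR).

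Among the 19 glycolysis genes tested, 15 had lower estimates in 2018 and 2 were called, where 16.1% of all genes were called. Their median change was -0.31, against -0.01 over all genes tested. Animals 537 and Little_R were in this fit, and the 19 genes were not tested as a set. None was called among 12 partners in oxygen sensing or 13 vascular genes, and 1 among 22 genes of survival, pH, matrix and redox. Without 537 and Little_R the changes of JMJD6 and LDHA were 0.39 and -0.43, with adjusted p values of 0.0518 and 0.0902 by edgeR. HK1 was not called among Yerkes animals (adjusted p = 0.531 by edgeR), with the mitochondrial share added (0.676) or without a filter on low counts (0.0548). LDHA was not called in any of these settings either, nor with orthologous exon totals without TMM. The vascular growth factor VEGFC had a change of 0.47 (adjusted p = 0.107) and the hydroxylase EGLN2 one of 0.29 (adjusted p = 0.122). ANGPT1, which steadies vessels, had a change of -0.78 with an adjusted p of 0.0517, just above the threshold. It was called by DESeq2 (adjusted p = 0.0291) and by edgeR without 537 and Little_R (adjusted p = 0.0343). LOX, a collagen-linking enzyme named after its values were seen, had a change of -0.73 with an adjusted p of 0.0526 by edgeR, and was called in those settings too (adjusted p = 0.0412 and 0.00734).

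Between the sexes 0 of these 66 genes were called by edgeR, 8 were at an unadjusted p under 0.05, and DESeq2 called 0. The smallest p among estimates higher in males were those of VEGFC at 0.61 (p = 0.00370), the lactate exporter SLC16A3 at 0.83 (p = 0.0110) and BNIP3L, the close relative of BNIP3, at 0.25 (p = 0.0369). Among estimates lower in males they were those of the MYC antagonist MXI1 at -0.33 (p = 0.00794), LDHA at -0.45 (p = 0.0137) and ANGPTL4, an inhibitor of lipoprotein lipase, at -1.33 (p = 0.0294). The smallest adjusted p of these by edgeR was 0.274.

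RNA integrity, age and post-mortem time were set against log2(CPM + 0.5) of each gene by two-sided permutation tests. With the RNA integrity number, which ran from 2.5 to 8.4, 0 of the 10 genes and 0% of all genes were called, and at an unadjusted p under 0.05 there were 0 of the 10 and 1483 of all genes. The highest rho was that of ANKRD37 at 0.305, with Pearson's r at 0.265 and at 0.238 without the 2 animals farthest from the median. No test is given for it, since it passed the minimum level only through Little_R, which was among the animals kept. The lowest was that of HIF3A at -0.219 (permutation p = 0.185, adjusted p = 0.627), with r at -0.202 (permutation p = 0.220) and at -0.106 without those 2. Within 2016 and 2018, rho of HIF3A was -0.246 and -0.154, and that of ANKRD37 was 0.428 within 2018.

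With age, known for 34 animals, 0 of the 10 and 0% of all genes were called, and at an unadjusted p under 0.05 there were 3 of the 10 and 1800 of all genes. EGLN1 had the highest rho at 0.411 (permutation p = 0.0166, adjusted p = 0.302), with r at 0.316 (permutation p = 0.0684) and at 0.292 without the 2 farthest ages. HIF3A had the lowest at -0.387 (permutation p = 0.0239, adjusted p = 0.320), with r at -0.331 (permutation p = 0.0556) and at -0.271 without those 2. Within 2016 and 2018, rho was 0.371 and 0.351 for EGLN1 and -0.134 and -0.518 for HIF3A. The third was VEGFA at -0.384 (permutation p = 0.0261, adjusted p = 0.321), with r at -0.392 (permutation p = 0.0218) and at -0.342 without those 2. Its rho was -0.470 within 2016 and -0.316 within 2018.

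Post-mortem time was known for 10 animals, 5 of them at 0 minutes and 5 between 30 and 150 minutes. With so few animals and tied times the test has little power, so a lack of calls decides nothing. Here 0 of the 10 genes and 0% of all genes were called, with 1 of the 10 and 943 of all genes at an unadjusted p under 0.05. That gene was VEGFA, which lay between 134 and 199 CPM in the 5 animals at 0 minutes and between 186 and 343 CPM in the 5 others. The groups overlapped by 1 animal, 4x0043, and the animal at 150 minutes was the highest. Sex went nearly with time, since 623 was the only male at 0 minutes and 4x0043 the only female at later times. The part of sex in this relation was not tested. Spearman's rho was 0.820 (permutation p = 0.00724, adjusted p = 0.632) and r was 0.747 (permutation p = 0.00102) over the 10 animals, with r at 0.717 without the 2 longest times. Among the 8 of these animals extracted in 2016, rho was 0.779 (permutation p = 0.0328, adjusted p = 0.869) and r was 0.774, and 2018 held too few for a value. With the deposited normalized scores rho over the 10 animals was 0.0721. The lowest rho was that of BNIP3 at -0.426 (permutation p = 0.225, adjusted p = 0.775), with r at -0.0403 (permutation p = 0.918) and at -0.179 without those 2.

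With the mitochondrial share of the library, 0 of the 10 genes were called against 11% of all genes, with 2 of the 10 at an unadjusted p under 0.05. EGLN3 had the lowest rho at -0.412 (permutation p = 0.0110, adjusted p = 0.0743), with r at -0.428 (permutation p = 0.00757) and at -0.404 without the 2 animals farthest from the median. The other was HIF1A at -0.363 (permutation p = 0.0251, adjusted p = 0.121), with r at -0.434 (permutation p = 0.00648) and at -0.369 without those 2. Its rho was -0.475 within 2016 and -0.262 within 2018. ANKRD37 had the highest rho at 0.243, while its r was 0.449 and 0.447 without those 2, which did not include Little_R. These values are given with no test, since ANKRD37 passed the minimum level only through Little_R. Within 2018 rho was -0.535 for EGLN3, and within 2016 it was -0.301.

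BNIP3 and EGLN1 were called with this share among the 21 animals of 2018, where 26.8% of all genes were called. There rho was -0.671 for BNIP3 (permutation p = 0.00109, adjusted p = 0.0132) and -0.636 for EGLN1 (permutation p = 0.00230, adjusted p = 0.0186). Among the 17 animals of 2016 it was 0.525 for BNIP3 (permutation p = 0.0327, adjusted p = 0.177) and -0.00490 for EGLN1 (permutation p = 0.989, adjusted p = 0.996). Whether these relations differ between the years was not tested.

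Among the 45 pairs of the 10 genes 1 was called. Of the 45 pairs, 26 had a positive rho, the median rho was 0.0815, and 1 pair had an adjusted p under 0.05 over the genes set against each of its 2 members. Counted against 1 member at a time, 6 of 90 relations between members were called (6.67%), where 12.2% of all relations of the 10 genes with another gene were. The called pair was EGLN1 and BNIP3, with rho at 0.533 (permutation p = 0.000560, larger adjusted p = 0.0189) and r at 0.471 (permutation p = 0.00285). Without the 2 animals farthest from the median of EGLN1, r was 0.538, and without those farthest for BNIP3 it was 0.413. Within 2016 and 2018 rho was 0.610 and 0.483, and without 537 and Little_R it was 0.488 with a larger adjusted p of 0.0637.

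NDRG1 was a partner in all 4 of the next highest pairs. It was related to many genes of any kind: 37.3% of all genes were called with it by permutation, 28.5% positive and 8.78% negative. Its median rho over all genes was 0.197. Whether NDRG1 was closer to the hypoxia genes than to other genes was not tested. Its rho was 0.436 with VEGFA (permutation p = 0.00662, larger adjusted p = 0.0634), where r was 0.381 (permutation p = 0.0193), and 0.501 and 0.388 without the 2 animals farthest for each gene in turn. With ADM it was 0.425 (permutation p = 0.00835, larger adjusted p = 0.987), where r was 0.223 (permutation p = 0.176), and 0.192 and 0.444 without those animals. With EPAS1 it was 0.373 (permutation p = 0.0214, larger adjusted p = 0.131), where r was 0.477 (permutation p = 0.00238), and 0.405 and 0.385 without those animals. With ANKRD37 it was 0.348 and r was 0.685, given with no test since Little_R was highest for both, and r was 0.379 without the 2 animals farthest for ANKRD37. Within 2016 and 2018 rho was 0.429 and 0.538 with VEGFA, and 0.654 and 0.382 with ADM. With EPAS1 it was -0.0490 in 2016 and 0.601 in 2018, and that difference was not tested. With ANKRD37 it was 0.465 in 2018.

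The lowest pairs joined an alpha subunit with a gene of the response. EPAS1 and EGLN3 had rho at -0.507 (permutation p = 0.00130, larger adjusted p = 0.114) and r at -0.482 (permutation p = 0.00190), with rho at -0.664 in 2016 and -0.334 in 2018. HIF1A and VEGFA had rho at -0.488 (permutation p = 0.00233, larger adjusted p = 0.0516) and r at -0.463 (permutation p = 0.00359), with rho at -0.243 in 2016 and -0.469 in 2018. Without the 2 animals farthest for each gene in turn, r was -0.415 and -0.493 for EPAS1 and EGLN3, and -0.469 and -0.372 for HIF1A and VEGFA. With TMM-scaled totals of the gene counts, HIF1A and VEGFA were called as well (rho -0.536, larger adjusted p = 0.0456 by permutation). HIF1A and EPAS1 had rho at 0.0887.

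**Figure D3:**
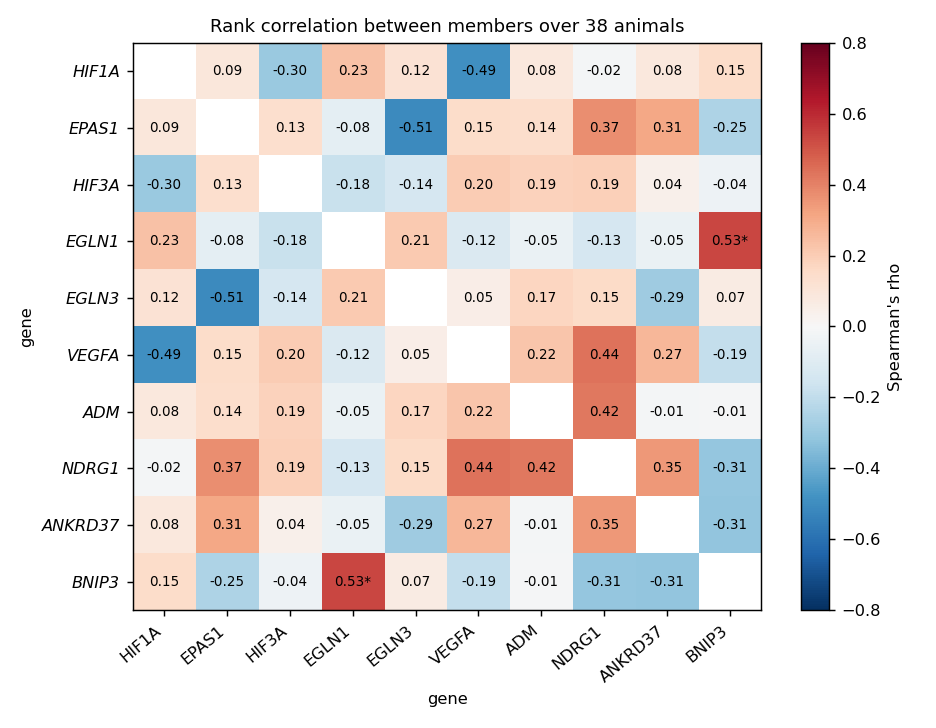
Spearman's rho between the 10 genes over 38 animals, with the value in each cell and red for positive and blue for negative. The star marks the 1 called pair, EGLN1 with BNIP3 at 0.533, and the lowest value is that of EPAS1 with EGLN3 at -0.507.

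Relations with the summed levels of cell type markers were about as frequent among the 10 genes as among all genes. Over 9 marker lists and the 10 genes, 14 of 90 relations (15.6%) were called, against 16.9% of all relations of a gene with a list. Since ANKRD37 passed the minimum level only through Little_R, which also had the extreme cardiomyocyte and fibroblast sums, its relations are given as a description with no test, and the other 9 genes had 11 calls in 81 (13.6%). By list, the share of all genes called was 51.6% for cardiomyocyte, 28.7% for fibroblast, 24% for endothelial and 21.7% for mural markers. It was 13.2% for erythrocyte, 7.85% for macrophage, 5.31% for neutrophil, 0.0457% for adipocyte and 0.0229% for atrial markers. Those 11 belonged to NDRG1 (4 lists), EPAS1 and BNIP3 (3 each) and EGLN1 (1), while HIF1A, HIF3A, EGLN3, VEGFA and ADM had none. NDRG1 and EPAS1 were higher in animals with more fibroblast and mural and less cardiomyocyte signal, and BNIP3 was the reverse of them on all 3 lists. With TMM-scaled totals the calls of EPAS1 and those of NDRG1 with the mural and endothelial sums were lost.

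The strongest relation was that of NDRG1 with the fibroblast sum, with rho at 0.711 (permutation p = 1e-05, the smallest that these permutations can give, adjusted p = 0.000278). Its r was 0.800 (permutation p = 1e-05) and 0.672 without the 2 animals farthest from the median, and rho was 0.429 in 2016 and 0.795 in 2018. NDRG1 had rho at 0.621 with the endothelial sum (adjusted p = 0.00462), at -0.589 with the cardiomyocyte sum (adjusted p = 0.000557) and at 0.422 with the mural sum (adjusted p = 0.0438). For ANKRD37 rho was 0.585 with fibroblast, -0.552 with cardiomyocyte and 0.454 with mural sums.

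EPAS1 had rho at -0.499 with the cardiomyocyte sum (adjusted p = 0.00528), 0.487 with the fibroblast sum (adjusted p = 0.0131) and 0.482 with the mural sum (adjusted p = 0.0206). Its rho with the endothelial sum, 0.355, was not called (adjusted p = 0.0897). BNIP3 had rho at 0.383 with cardiomyocyte (adjusted p = 0.0377), -0.491 with fibroblast (adjusted p = 0.0132) and -0.469 with mural sums (adjusted p = 0.0249). EGLN1 was called with the mural sum at -0.461 (adjusted p = 0.0283). All these adjusted p values are from the permutation tests of rho over all genes. Over these relations, those of ANKRD37 left out, r had the sign of rho, also without the 2 animals farthest from the median of the sum. The permutation p of r was at most 0.00334 there.

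The scale of the library bears on these relations. With TMM-scaled totals of the gene counts 12.2% of the relations of the 10 genes were called, against 12% of all relations, and those of EPAS1 were not among them: its rho was -0.161 with cardiomyocyte, 0.284 with fibroblast and 0.341 with mural sums. NDRG1 and BNIP3 were still called with the cardiomyocyte and fibroblast sums and in the same direction, and EGLN3 was called with the cardiomyocyte sum at 0.468 (adjusted p = 0.00953 by permutation). Over all genes, 9.66% were called positive and 41.9% negative with the cardiomyocyte sum, against 33.1% and 20.6% with TMM-scaled totals. Within the years, rho of EPAS1 with the mural sum was 0.137 in 2016 and 0.686 in 2018. That of BNIP3 with the fibroblast sum was -0.424 in 2016 and -0.592 in 2018, and that of EGLN1 with the mural sum was -0.600 and -0.340.

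Without 537 and Little_R, 5 of 81 relations were called (6.17%, against 9.63% of all relations), of which 4 had been called over all animals: NDRG1 with the cardiomyocyte, endothelial and fibroblast sums and EPAS1 with the cardiomyocyte sum. NDRG1 and the fibroblast sum then had rho at 0.660 (adjusted p = 0.00128). Among the 2016 animals alone 0 of 81 relations were called, where 0.826% of all relations were. The lists of macrophage, neutrophil, erythrocyte, adipocyte and atrial markers gave no call for the 10 genes, and the lowest adjusted p there was 0.0583, for BNIP3 with the erythrocyte sum.

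**Figure D4:**
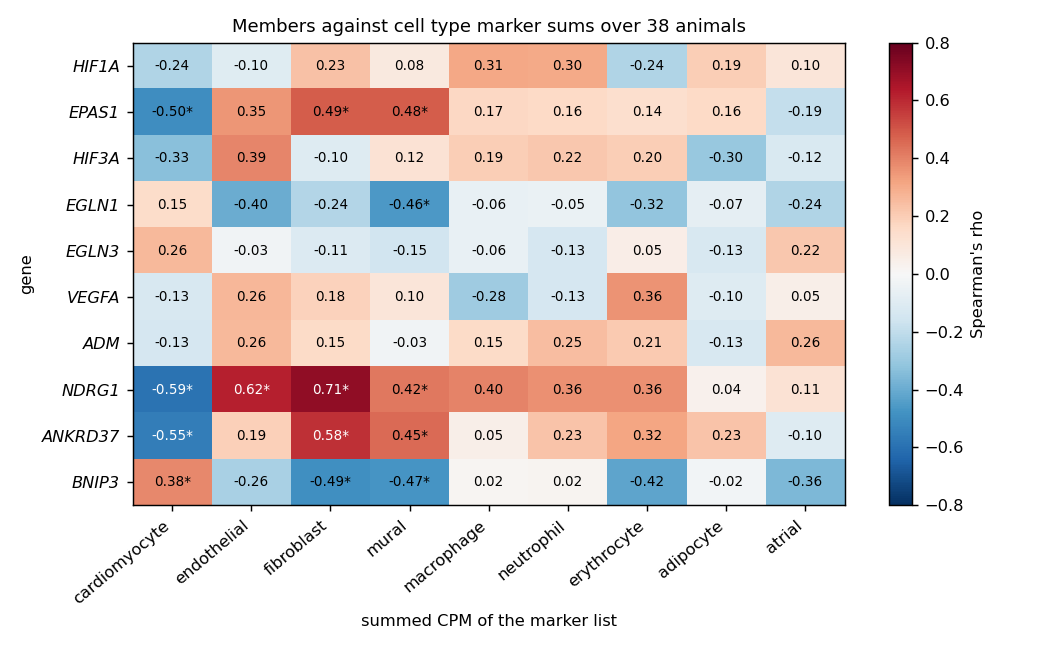
Spearman's rho of each gene with the summed CPM of 9 cell type marker lists over 38 animals, red for positive and blue for negative, with a star where the adjusted p is under 0.05. NDRG1, ANKRD37 and EPAS1 are blue with cardiomyocyte and red with fibroblast and mural sums, BNIP3 is the reverse, and 14 of the 90 cells have a star, 3 of them of ANKRD37, which is in the test only through Little_R.

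Most of the 10 genes lay above the trend of variation between animals. Dispersion is the natural log of the negative binomial overdispersion minus its trend on mean level, so a value of 0 lies on the trend. It was above 0 for 8 of the 10 genes, against 44.4% of all genes, and no test was made. NDRG1 lay at 1.57, above 94.7% of all genes. Without Little_R it was 1.16, below HIF3A at 1.24, and without 537 and Little_R it was 0.97, below HIF3A (1.30), VEGFA (1.16) and ADM (1.09). HIF3A lay at 1.11 over all animals and stayed between 1.02 and 1.24 with any 1 animal left out. VEGFA lay at 0.85 and EGLN3 at 0.75, with lowest values of 0.59 without 4X0354 and 0.62 without MD_And.

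ADM at 0.88 dropped to 0.39 without 549, and HIF1A at 0.67 dropped to 0.31 without 570. BNIP3 lay at 0.58, between 0.46 and 0.63 with any 1 animal left out. EGLN1 lay near the trend at 0.10 and was below it, at -0.08, without 570. EPAS1 was below the trend at -0.35, and ANKRD37 at -0.16. Taken by year, HIF3A lay at -0.06 in 2016 and 1.28 in 2018, ADM at 1.73 and 0.30, and EGLN3 at 1.48 and 0.31. The side of the trend also turned for EPAS1, at 0.26 in 2016 and -0.55 in 2018, and for EGLN1, at 0.89 and -0.23. ANKRD37 lay at 0.19 in 2018.

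**Figure D5:**
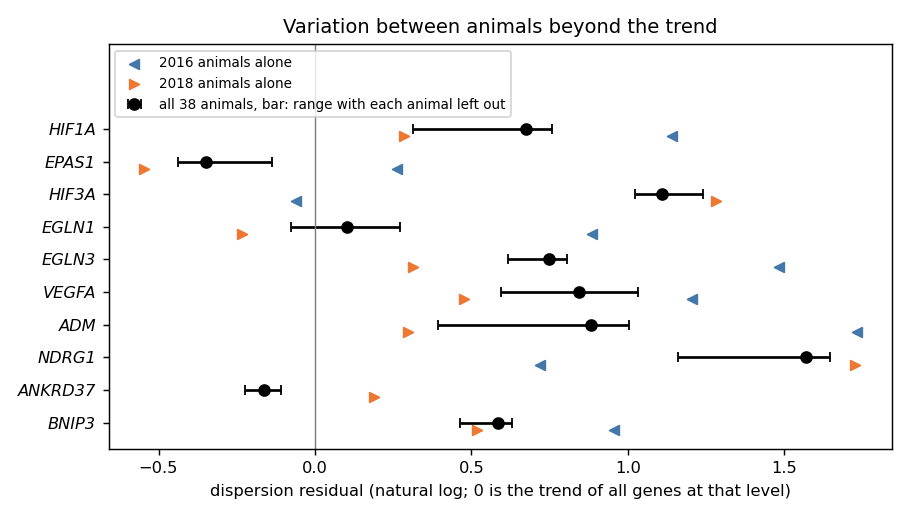
Dispersion of the 10 genes, the natural log of overdispersion minus the trend of all genes. Black points are all 38 animals with bars for the range when each animal in turn is left out, and triangles are the animals of 2016 (blue) and 2018 (orange) alone. The bar of ANKRD37 does not cover the fit without Little_R, where this gene is below the minimum level, so its short length does not show stability. Over all animals NDRG1 is at 1.57, 1.16 without Little_R, EPAS1 is lowest at -0.35, and HIF3A lies at -0.06 in 2016 and 1.28 in 2018.

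The genes whose levels were most like each member over the 38 animals are given as a description, with Spearman's rho. HIF1A was most like KCTD20 (0.779), CLINT1 (0.778) and PPP1R2 (0.756), and EPAS1 most like ZNF496 (0.800), SASH1 (0.790) and SOX13 (0.762). HIF3A was most like ZMIZ2 (0.722), FBXL6 (0.716) and MCRIP2 (0.708). EGLN1 was most like G3BP2 (0.772), which encodes a stress granule protein, PDE4D (0.770), a phosphodiesterase, and ZRANB1 (0.768).

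For EGLN3 the 3 were genes of the contractile apparatus, FLNC (0.696), XIRP1 (0.673) and MYPN (0.646), which encode proteins of Z-discs and intercalated discs. By the permutation test, 0% of all genes were called with EGLN3, and 0% with ADM. Among the genes most like VEGFA were the transcription factor WT1 (0.733) and the hexokinase HK3 (0.730). ADM had the loosest neighbours, ABAT (0.558), ZNF99 (0.543) and BUB1 (0.542). NDRG1 was most like CD9 (0.833), ICOSLG (0.828) and ARL6IP1 (0.823), ANKRD37 most like LONRF3 (0.786), FOXC2 (0.734) and ZFP36 (0.714), and BNIP3 most like GPD1L (0.867), PPP2R5C (0.779) and PRXL2A (0.769). The median rho over all genes lay between -0.120 for BNIP3 and 0.197 for NDRG1. All these values share the same libraries and totals.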

How the data were processed

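The authors deposited counts of reads per annotated gene (31373 genes), made with STAR on Pan_tro_3.0, counts on orthologous exons (44125 genes), and a score per gene and animal, made from log CPM by standardizing and quantile normalizing (13545 genes, 37 animals). STAR 2.6.1b, Subread and featureCounts stand in the submitters' processing notes. Another 52 columns of these tables, among them 49 human ones, were not used. Extraction year, sex, integrity, age and post-mortem time came from the study's sample table, since the GEO labels give 1 group only.

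CPM were gene counts divided by the orthologous exon total, and symbols were found for 18040 identifiers. Correlations and dispersion used the 13121 genes that reached 6 CPM in 1 or more animals, with a pseudocount of 0.5, 100000 permutations and a LOESS span of 0.75. Gene counts summed to between 43892814 and 132478050 per animal, and the lowest count of a member was 8 for ANKRD37 and 280 or more for the others. P-values set a difference or correlation against the variation between animals. The tests treat the animals as independent, although some are first-degree relatives. Extraction years and sexes were compared with edgeR 4.0.16 (quasi-likelihood, TMM, filterByExpr) and, as an alternative, DESeq2 1.42.0 in R 4.3.3, the year adjusted for sex and the sex for year. Adjustment was by Benjamini-Hochberg over all genes, with a threshold of 0.05. The steps were tested on simulated data. Python 3.11.15, statsmodels 0.14.6 and scipy 1.17.1 did the rest.

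The members, pathway lists and marker lists were chosen with earlier results of these data known. All 10 members are named. From the pathway lists the 3 genes with the smallest p in each direction of each comparison, per member the 3 genes with the highest rho, the 5 highest and 2 lowest pairs, and for each covariate the called, highest and lowest members are named, except 1 gene that is not reported here. NOS3 and FCGR3B of the lists had no row with their symbol. Alternatives were other library sizes, filters, pseudocounts and tools, fits with integrity or mitochondrial share, subsets of animals and the deposited scores.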

Additional observations from a re-analysis of the deposited data

How the results depend on the processing

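Between extraction years the count of 3 called hypoxia genes became 1 without 537 and Little_R and 0 among Yerkes animals or with the mitochondrial share added, an alternative chosen after seeing the data. The count of 3 called pathway genes became 5 with DESeq2, which added ANGPT1 and LOX, 1 among Yerkes animals, JMJD6, and 1 with the mitochondrial share, LOX, so that all 3 calls were lost there. Without 537 and Little_R it was also 3, HK1, ANGPT1 and LOX. The cause was not tested. Estimates that had not passed the test changed sign between years: EGLN1 became 0.046 without 537 and Little_R, 0.024 with integrity added, 0.037 among Yerkes animals and 0.16 with the mitochondrial share, EGLN3 became 0.31 among Yerkes animals, and NDRG1 became -0.12 and EGLN2 -0.013 with the mitochondrial share. Between sexes, HIF1A became 0.017 and NDRG1 -0.066 with the mitochondrial share, EGLN3 became -0.23 among Yerkes animals, and ANKRD37 became 0.51 with DESeq2, 0.51 without 537 and Little_R, 0.20 with integrity added and 0.60 among Yerkes animals. The counts for sexes, integrity, age and post-mortem time were 0 throughout, so that they did not move says little. That for dispersion did not move by over 1.5 times.

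With the mitochondrial share 2 genes were called in 2018 alone. The 14 relations with marker sums, 3 of them of ANKRD37, became 5 without 537 and Little_R, and 0 with the deposited scores or in 2016 alone. The count of 1 called pair became 2 with TMM-scaled totals, and 0 without 537 and Little_R or in 2016 alone. NDRG1 with EPAS1 turned to -0.0490 in 2016, and with the scores NDRG1 with ANKRD37 turned to -0.0121, HIF1A with VEGFA to 0.0526 and EPAS1 with EGLN3 to 0.00356. With the scores the called pair was HIF1A with EPAS1, at rho 0.672 (larger adjusted p = 0.00528 by permutation). HIF3A was no longer called for its spread without 537 and Little_R, with a difference of 0.57 against 0.59, so that 0 of the 9 genes tested and 11 of all genes were called there.

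Pseudocounts of 0.1 and 2 cannot change a rank, so they were no check of rho or of the calls made with it. Counts on orthologous exons were not run, because no names were at hand for that table's identifiers. No paired analysis was possible because each animal gave 1 library and the labels hold 1 group. Depth limits ANKRD37, which has a median of 26 reads.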
